A study of Mus musculus with 15 samples.

Results

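The 10 genes described here, Jun, Junb, Jund, Fos, Fosb, Fosl2, Atf3, Egr1, Sox11 and Klf6, encode AP-1 subunits and transcription factors of the neuronal injury response. They were chosen by name from 36144 gene symbols, and all 10 were listed. Of the 10, 8 passed the filter of at least 1 TPM (a kallisto abundance scaled by transcript length and library total) in at least 3 libraries, among 15425 genes tested. Fosb and Fosl2 stayed under it.

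RNA was measured in motor neurons from lumbar levels L1 to L3 of the spinal cord, in mouse pups aged 6 days, labelled by cholera toxin subunit B and cut out by laser capture. There were 15 libraries in 5 groups of 3. WT pups were Smn+/+;SMN2;SMNΔ7 littermates and SMA pups were Smn-/-;SMN2;SMNΔ7, both given vehicle. SMA+MW150 pups received 5 mg/kg of the p38α inhibitor MW150, SMA+Pifithrin-α pups 2.2 mg/kg of the p53 inhibitor Pifithrin-α, and SMA+SMN-C3 pups 3 mg/kg of SMN-C3, which modifies SMN2 splicing. The pups were injected intraperitoneally each day, starting on the day of birth (day 0). All groups, WT included, carried both human transgenes on an FVB background, and each held the sexes in equal proportion. Whether a library pools animals is not stated in the sources used here, so the p-values measure the spread between these libraries.

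AP-1 is a dimer of a Jun protein with a Fos, Jun or ATF protein. Fos, Junb and Egr1 are immediate early genes, whose RNA is made within minutes of a stimulus and is short lived. After axon injury, JNK signalling activates Jun, and Atf3, Sox11 and Klf6 are induced with effector genes such as Sprr1a in neurons that regrow an axon.

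The promoters of 4 members, Fos, Junb, Jun and Atf3, are shown as examples. Each is the 250 bases before the RefSeq start (GRCm38.p6), written 5′ to 3′ on the gene's own strand. The RefSeq start used for Atf3 lies inside the annotated gene, not at its 5′ end. Capitals mark matches to TGACG, the core of a cyclic AMP response element, or to TGANNTCA, a spaced ATF and AP-1 type site, on either strand. They lie at chr12:85473640-85473889 (plus strand, Fos), chr8:84978749-84978998 (minus, Junb), chr4:95052223-95052472 (minus, Jun) and chr1:191183334-191183583 (minus, Atf3).
Fos: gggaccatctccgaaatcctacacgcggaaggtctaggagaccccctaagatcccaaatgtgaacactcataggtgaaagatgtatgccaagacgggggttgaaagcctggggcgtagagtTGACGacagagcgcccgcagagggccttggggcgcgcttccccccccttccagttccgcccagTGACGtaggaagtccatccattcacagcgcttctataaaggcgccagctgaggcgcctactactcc
Junb: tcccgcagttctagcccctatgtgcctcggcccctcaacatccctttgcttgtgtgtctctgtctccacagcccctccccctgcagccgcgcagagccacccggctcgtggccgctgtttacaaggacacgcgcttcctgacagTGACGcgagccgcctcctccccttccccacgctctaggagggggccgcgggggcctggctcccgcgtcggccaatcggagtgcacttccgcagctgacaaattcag
Jun: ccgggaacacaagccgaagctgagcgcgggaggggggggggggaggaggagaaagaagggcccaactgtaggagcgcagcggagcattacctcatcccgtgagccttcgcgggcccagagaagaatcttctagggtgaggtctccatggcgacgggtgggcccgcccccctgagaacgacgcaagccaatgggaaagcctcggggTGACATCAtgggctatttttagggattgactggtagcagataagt
Atf3: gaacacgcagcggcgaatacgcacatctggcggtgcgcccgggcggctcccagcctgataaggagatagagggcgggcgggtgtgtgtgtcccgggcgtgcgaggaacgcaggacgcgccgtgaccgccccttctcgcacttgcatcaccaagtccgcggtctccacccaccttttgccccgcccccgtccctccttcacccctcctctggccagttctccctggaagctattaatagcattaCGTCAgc

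Promoter sequences were found for 9 of the 10 members, all but Egr1. The starts used are not always those of the annotated genes whose TPM is given here. The promoters of Atf3 and Fosl2 lie inside the annotated genes. That of Jund (chr8:70697489-70697738) ends upstream of the annotated gene, which begins at chr8:70698949. TGACG was present in 4 of the 9 (Atf3, Fosb, Junb and Fos) and in 17.8% of 32851 promoters of the same length. TGANNTCA was present in Jun, Jund, Sox11 and Klf6, and in 11.9% of all promoters. The AP-1 letters TGANTCA and the full element TGACGTCA were in 0 of the 9, against 6.75% and 1.55% of all promoters. A full element contains both TGACG and TGANNTCA, so these counts are not independent. Fos held TGACG in 2 places, at -129 to -125 and at -66 to -62 from its start, and Jun held TGACATCA at -45 to -38.

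Smn1, the deleted gene, checks the labels. It stood at 16.3 ± 7.18 TPM in WT (SD, n = 3) and at no more than 1.50 TPM in any of the 12 Smn-/- libraries. All 13 motor neuron markers were detected, at 8228 to 13167 TPM in sum. Libraries differed in the share of mitochondrially encoded RNA: 21.9% in WT 1, 20.4% in SMA+Pifithrin-α 3, 12.6% in SMA+Pifithrin-α 2, and 11.3% in SMA+SMN-C3 1, against 3.76% to 7.55% elsewhere. The TPM total is fixed, so a high share lowers the values of other genes. The depth behind each value is unknown, since the tables hold no counts. In such bulk samples, fewer cells of a type and less RNA per cell cannot be told apart.

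No member passed the test in any comparison. The share of all tested genes that did was 0.363% for SMA against WT, 0.00648% for SMA+MW150 and 0.00648% for SMA+Pifithrin-α against SMA. For SMA+SMN-C3 against SMA the share was 0.0648%. Against WT it was 0.143% for SMA+MW150, 0.117% for SMA+Pifithrin-α and 0.0194% for SMA+SMN-C3. It was 0.246% for the mean of the 4 Smn-/- groups against WT and 0.22% for any difference among the 5 groups. The test was limma on log2(TPM+1) with Benjamini-Hochberg adjustment over 15425 genes and a threshold of 0.05. At an unadjusted p under 0.05, limma marked 2 of the 8 members between SMA and WT (Fos and Junb), beside 13.5% of all genes. Between SMA+MW150 and SMA limma marked 0 members, beside 1.90% of all genes. Between SMA+Pifithrin-α and SMA limma marked 2 (Junb and Jund), beside 10.7%. Without SMA+Pifithrin-α 3, the log2 difference there was -0.61 for Junb and -0.24 for Jund, against -0.93 and -1.08 with it. Between SMA+SMN-C3 and SMA limma marked 2 (Fos and Egr1), beside 8.53%. Over the 8 members the median log2 difference between SMA and WT was 0.49, beside 0.24 over all genes. The same medians were -0.06 beside 0.06 for MW150, -0.67 beside -0.22 for Pifithrin-α and -0.15 beside -0.23 for SMN-C3, each against SMA.

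**Figure D1:**
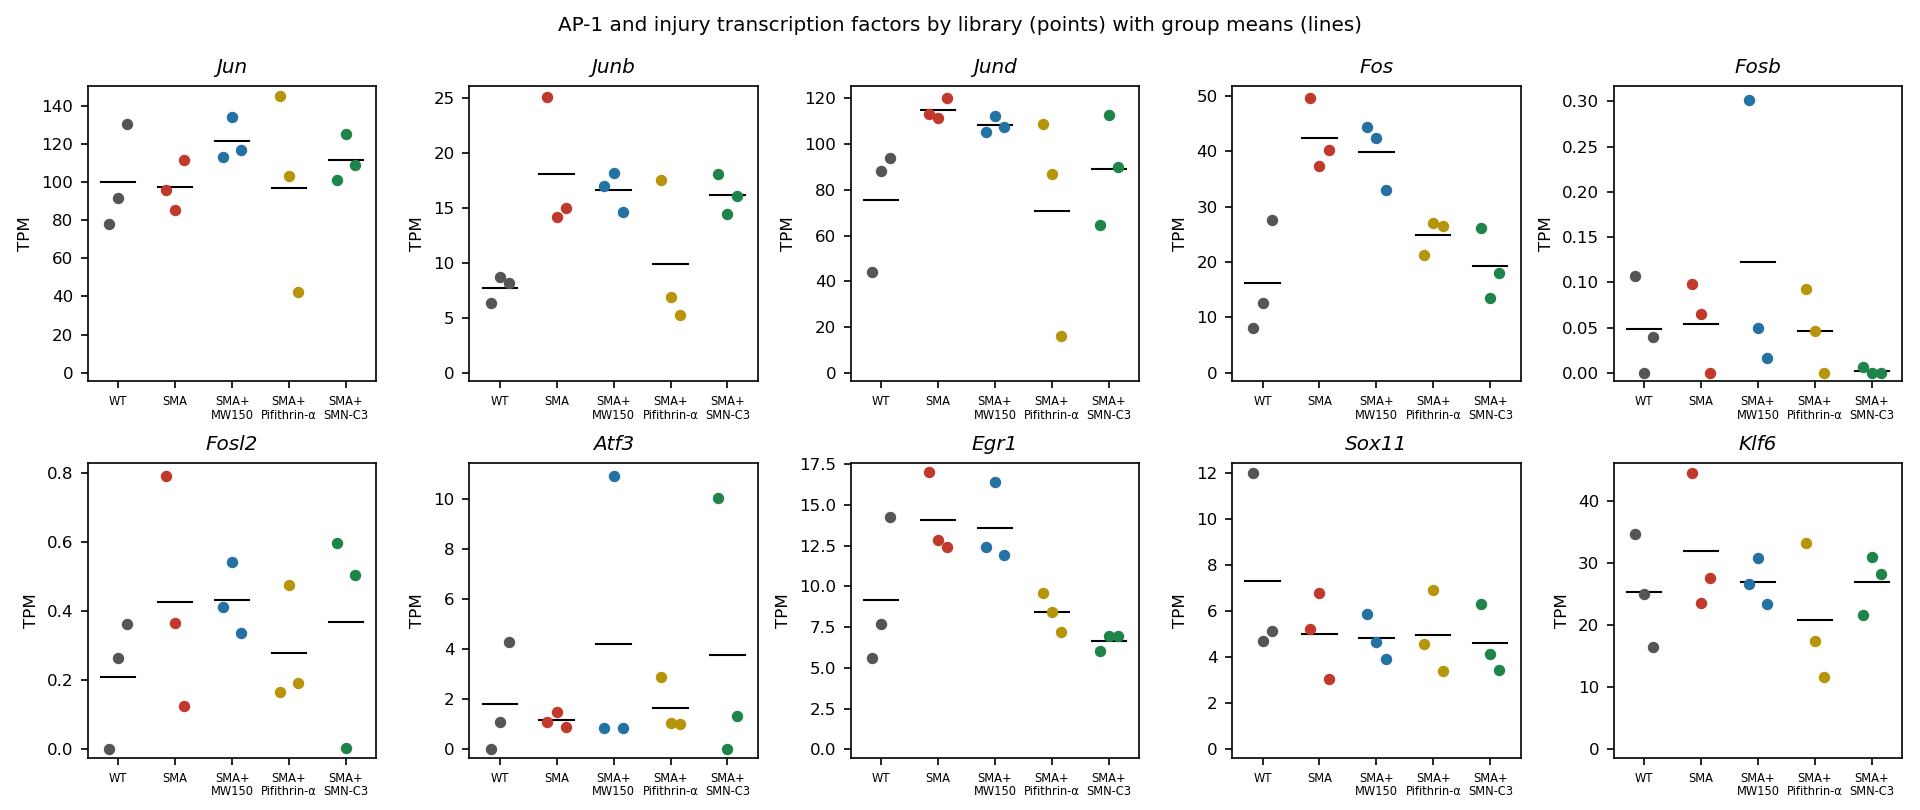
TPM of each member (y axis, from 0) in the 15 libraries, coloured by group, with the group mean as a line. Fos lies at 37.3 to 49.8 TPM in SMA and 8.11 to 27.7 TPM in WT, while Jun overlaps between these groups.

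By level, Jun was the most abundant member, at 105 ± 25.5 TPM over the 15 libraries (SD, n = 15). Jund followed at 91.7 ± 29.2 TPM as deposited, which overlaps Jun, but at 45.8 ± 14.6 TPM for its annotated transcript alone, which does not. Fos (28.6 ± 12.5 TPM) and Klf6 (26.5 ± 8.16 TPM) did not differ beyond their spread either. Junb (13.7 ± 5.55 TPM), Egr1 (10.4 ± 3.77 TPM), Sox11 (5.34 ± 2.20 TPM) and Atf3 (2.52 ± 3.40 TPM) came next, each with a range of mean ± SD that overlapped that of its neighbour. Fosl2 (0.343 ± 0.223 TPM) and Fosb (0.0548 ± 0.0785 TPM) were close to 0.

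Fos (chr12:85473890-85477273, plus strand) encodes the partner of Jun in the classical AP-1 dimer. Its level was 8.11, 12.7 and 27.7 TPM in WT 1 to 3 and 49.8, 37.3 and 40.3 TPM in SMA 1 to 3. It was 44.4, 42.5 and 33.0 TPM in SMA+MW150, 21.3, 27.1 and 26.6 TPM in SMA+Pifithrin-α, and 26.1, 13.5 and 18.0 TPM in SMA+SMN-C3. Every SMA and SMA+MW150 library was above every library of the other 3 groups.

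The log2 difference of Fos between SMA and WT was 1.50 (SE 0.36, a 2.82-fold higher level, limma adjusted p = 0.108). Without WT 3, the WT library highest in Fos, it was 1.95 and passed (adjusted p = 0.0140). Without WT 1, the library of highest mitochondrial share, it was 1.12 (adjusted p = 0.424). Over 16 alternatives it was 1.12 to 1.95, with adjusted p from 0.0140 to 0.501. It passed in 2 of them, without WT 3 and with the planned library weights, which did not converge (limma adjusted p = 0.0255). Between SMA+MW150 and SMA it was -0.09 (95% interval -0.85 to 0.67). Between SMA+Pifithrin-α and SMA it was -0.74 (-1.50 to 0.02, adjusted p = 0.461), and between SMA+SMN-C3 and SMA it was -1.14 (-1.90 to -0.38, adjusted p = 0.356). The last passed with library weights estimated gene by gene (adjusted p = 0.0416), an alternative added after the data had been seen that called 1.50% of all genes there. Its adjusted p over 16 alternatives was 0.0241 to 0.808, the lowest from the weights that did not converge. SMA+MW150 against WT gave 1.41 (adjusted p = 0.231), which passed without WT 3 (1.86, adjusted p = 0.0285). Without WT 1 it was 1.04 (adjusted p = 0.741), the lowest of its 16 alternatives. It passed in 2, without WT 3 and with the weights that did not converge (limma adjusted p = 0.0222). With 3 libraries against 3, the exact two-sided permutation test of a single gene cannot go below 0.1, and it gave 0.1 for Fos in SMA against WT. The main coding transcript made up 93.8% of the Fos TPM.

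Junb (chr8:84974484-84978718, minus strand) encodes a Jun protein that activates transcription less strongly than Jun. It overlaps Prdx2 on the other strand, and whether the libraries keep strand is not stated. Its level was 6.35, 8.76 and 8.14 TPM in WT, 25.1, 14.2 and 15.04 TPM in SMA, and 17.0, 18.2 and 14.7 TPM in SMA+MW150. In SMA+Pifithrin-α it was 17.6, 6.91 and 5.29 TPM, a wide spread, and in SMA+SMN-C3 18.1, 14.5 and 16.1 TPM. The SMA, SMA+MW150 and SMA+SMN-C3 libraries all lay above the 3 WT libraries. The log2 difference was 1.09 for SMA against WT (SE 0.37, adjusted p = 0.264) and 0.98 for SMA+SMN-C3 against WT (adjusted p = 0.655). Against SMA it was -0.11 for SMN-C3 (-0.88 to 0.66) and -0.93 for Pifithrin-α (-1.70 to -0.15, adjusted p = 0.461). The value for Pifithrin-α passed with the same gene-by-gene weights (adjusted p = 0.0144), which called 10.2% of all genes there. Those weights put 89.7% of the SMA+Pifithrin-α group on replicate 2. Without SMA+Pifithrin-α 3 the difference of Junb was -0.61 (adjusted p = 0.987).

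Egr1 (chr18:34859823-34864984, plus strand) encodes a zinc-finger immediate early factor. Its level was 5.61, 7.71 and 14.2 TPM in WT and 17.0, 12.9 and 12.4 TPM in SMA, so WT 3 overlapped SMA. It was 12.4, 16.4 and 11.9 TPM in SMA+MW150, 9.63, 8.42 and 7.19 TPM in SMA+Pifithrin-α and 6.04, 6.96 and 6.93 TPM in SMA+SMN-C3. All libraries of the last pair of groups lay under all SMA libraries. The log2 difference was 0.64 for SMA against WT (SE 0.32, adjusted p = 0.384), -0.97 for SMN-C3 against SMA (-1.66 to -0.29, adjusted p = 0.399) and -0.05 for MW150 against SMA (-0.74 to 0.63).

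Jund (chr8:70698949-70700616, plus strand) encodes the Jun protein present in resting cells. Its level was 44.1, 88.4 and 93.9 TPM in WT, 113, 111 and 120 TPM in SMA, and 105, 112 and 107 TPM in SMA+MW150. It was 109, 87.0 and 16.2 TPM in SMA+Pifithrin-α and 64.7, 113 and 90.2 TPM in SMA+SMN-C3. The lowest values were in libraries with a high mitochondrial share, SMA+Pifithrin-α 3 and WT 1. How far the fixed TPM total accounts for these low values was not tested. The log2 difference between SMA and WT was 0.67 (SE 0.50, adjusted p = 0.511), and it was -0.13 with that share in the model. Between SMA+Pifithrin-α and SMA it was -1.08 (adjusted p = 0.461), and -0.24 without SMA+Pifithrin-α 3. The Jund gene value was exactly 2 times its annotated transcript in every library, and 1 other transcript entry held identical values, so its level may be counted double. Its antisense neighbour Gm11175 was not analysed here.

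Jun (chr4:95049034-95052222, minus strand) encodes the subunit activated by JNK. Its level was 77.9, 91.7 and 131 TPM in WT and 95.9, 85.2 and 111 TPM in SMA. It was 113, 134 and 117 TPM in SMA+MW150, 145, 103 and 42.1 TPM in SMA+Pifithrin-α, and 101, 125 and 109 TPM in SMA+SMN-C3. The groups overlapped except SMA+MW150, whose 3 libraries all lay above SMA. The log2 difference was -0.01 for SMA against WT (-0.74 to 0.71) and 0.32 for MW150 against SMA (-0.41 to 1.04, adjusted p = 1). The first interval spans -0.74 to 0.71 on the log2 scale, so equal levels were not shown.

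Counting members whose groups did not overlap, Junb, Jund and Fos were higher in SMA than in WT, as were 14.5% of all tested genes. In SMA+MW150 the same 3 were higher than in WT (17.9% of genes), and Jun was higher than in SMA (7.53%). Jund, Fos and Egr1 were lower in SMA+Pifithrin-α than in SMA (9.76%), and Fos and Egr1 were lower in SMA+SMN-C3 than in SMA (18.2%). Junb alone was higher in SMA+SMN-C3 than in WT (4.03%). These comparisons share control libraries.

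**Figure D2:**
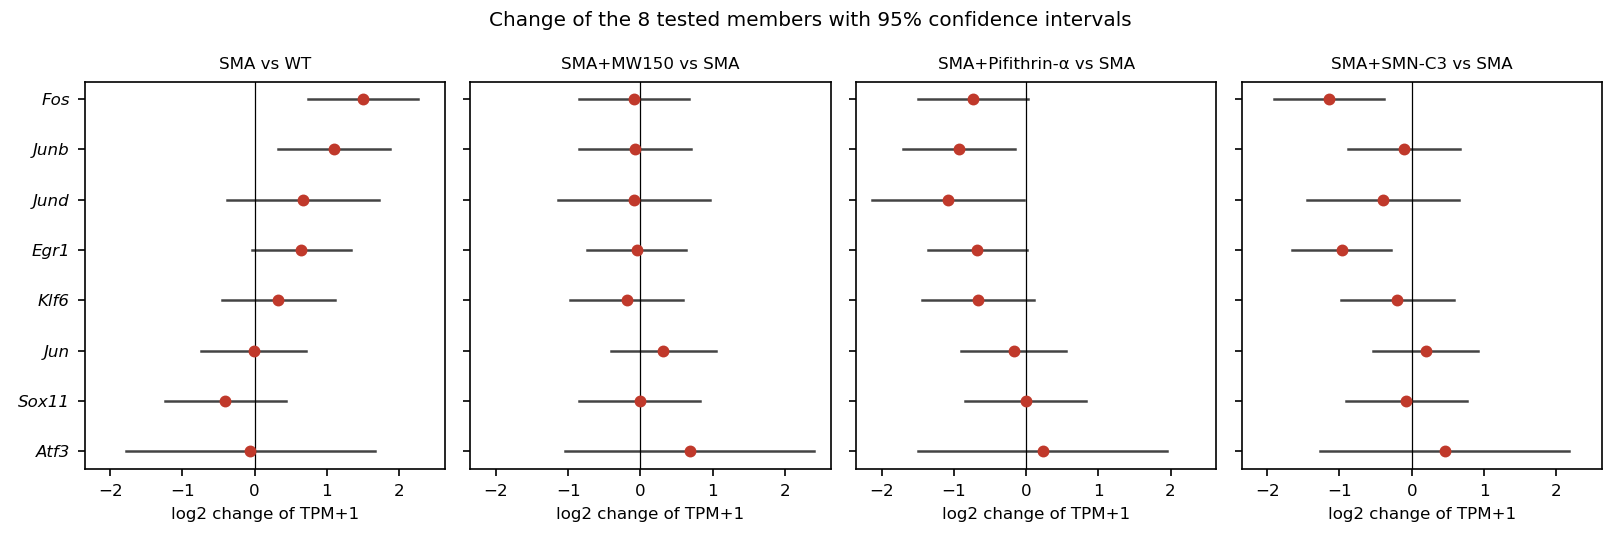
Log2 difference of TPM+1 (x axis) of the 8 tested members in 4 comparisons, with 95% confidence intervals as bars. Fos is at 1.50 for SMA against WT and -1.14 for SMA+SMN-C3 against SMA. In the SMA+MW150 panel the values lie between -0.19 and -0.01, except for Jun (0.32) and Atf3 (0.68).

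Microglia marker RNA, like Fos, was highest in the SMA and SMA+MW150 groups. Microglia are the resident macrophages of the spinal cord and also express Fos, Junb and Egr1. All 12 microglia and macrophage markers were above WT in SMA in mean, and C1qc, a complement subunit, was the 1 that passed the test (log2 1.86, adjusted p = 0.0144). The summed markers were 56.9 to 94.6 TPM in WT, 174 to 206 TPM in SMA, 132 to 182 TPM in SMA+MW150, 69.5 to 130 TPM in SMA+Pifithrin-α and 93.8 to 126 TPM in SMA+SMN-C3. No marker was at 0 throughout a group. Means of other cell type markers also varied between the groups, but 0 of these markers passed the test in any comparison. Between SMA and WT, 9 of 12 oligodendrocyte lineage markers (median log2 0.94) and 10 of 10 astrocyte markers (0.45) were higher in mean. So were 5 of 5 red blood cell (0.54) and 4 of 5 interneuron markers (0.61), beside a median of 0.24 over all genes. Of the motor neuron markers 6 of 13 were higher (-0.16), and of the vascular markers 6 of 10 (0.08). Between SMA+SMN-C3 and SMA, 12 of 12 microglia (-0.86), 12 of 12 oligodendrocyte (-0.76), 8 of 10 astrocyte (-0.84) and 5 of 5 red blood cell markers (-1.08) were lower. Between SMA+Pifithrin-α and SMA, 12 of 12 microglia (-1.47), 12 of 12 oligodendrocyte (-1.29), 9 of 10 astrocyte (-0.73) and 5 of 5 red blood cell markers (-1.16) were lower. Over all genes the median was -0.23 for SMN-C3 and -0.22 for Pifithrin-α, each against SMA. Without WT 1 and SMA+Pifithrin-α 3, the Pifithrin-α medians were -1.06 for microglia, -0.94 for oligodendrocyte and -0.38 for astrocyte markers. Red blood cell markers had -1.12 there, beside 0.0046 over all genes. The part of this RNA in the levels of the members and of the lists of related genes was not tested.

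**Figure D3:**
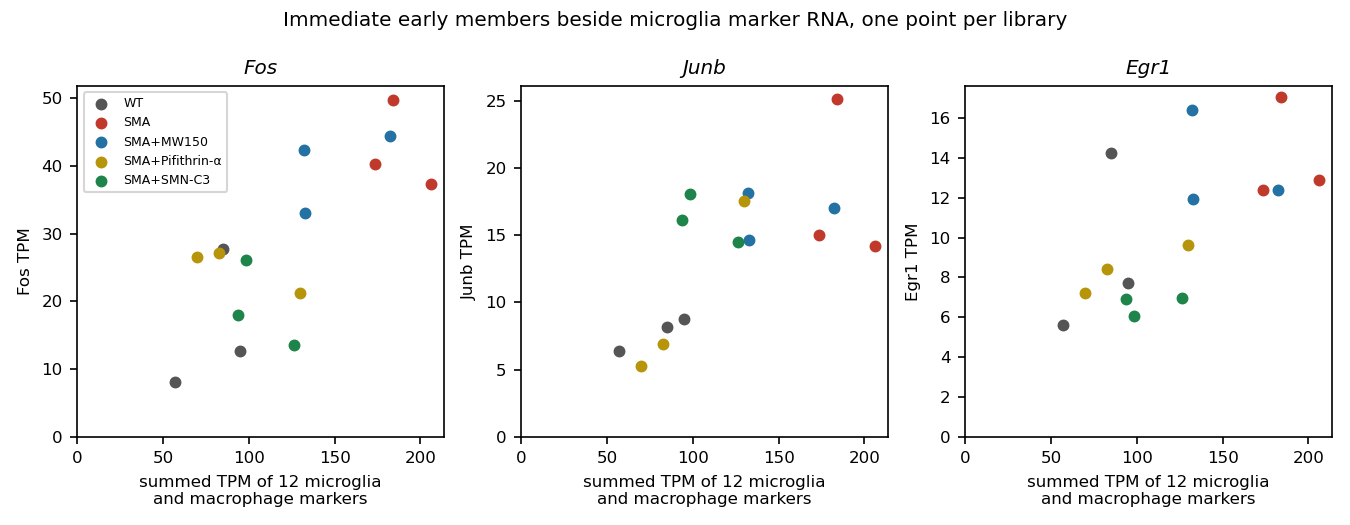
TPM of Fos, Junb and Egr1 (y axes) against the summed TPM of 12 microglia and macrophage markers (x axis), 1 point per library, coloured by group. The SMA libraries lie at 174 to 206 TPM of markers and the WT libraries at 56.9 to 94.6 TPM.

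Atf3 (chr1:191170296-191218039, minus strand) encodes a stress-induced ATF protein that dimerises with Jun. It was listed at 0 in WT 1 and stood at 1.09 and 4.30 TPM in WT 2 and 3. It was 1.11, 1.48 and 0.879 TPM in SMA, 0.844, 10.9 and 0.859 TPM in SMA+MW150, and 2.89, 1.04 and 0.995 TPM in SMA+Pifithrin-α. In SMA+SMN-C3 it was 10.03 TPM in replicate 1, listed at 0 in replicate 2, and 1.31 TPM in replicate 3. A pair of libraries, SMA+MW150 2 and SMA+SMN-C3 1, therefore stood far above the rest. The log2 difference between SMA and WT was -0.06 (-1.78 to 1.66).

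Sprr1a, a growth-associated protein of injured neurons, was at 380 TPM in SMA+MW150 2 and 25.2 TPM in SMA+SMN-C3 1. It was 3.37, 1.37 and 67.0 TPM in WT and 51.6, 39.6 and 33.6 TPM in SMA. Gal, a neuropeptide induced by axotomy, was at 200.8 TPM in SMA+MW150 2 and at no more than 28.9 TPM in any other library; it was chosen after its values were seen. The library high in all 3 genes was thus SMA+MW150 2. WT 3, with 4.30 TPM of Atf3, was the highest WT library in Sprr1a (67.0 TPM) and Gal (28.9 TPM).

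**Figure D4:**
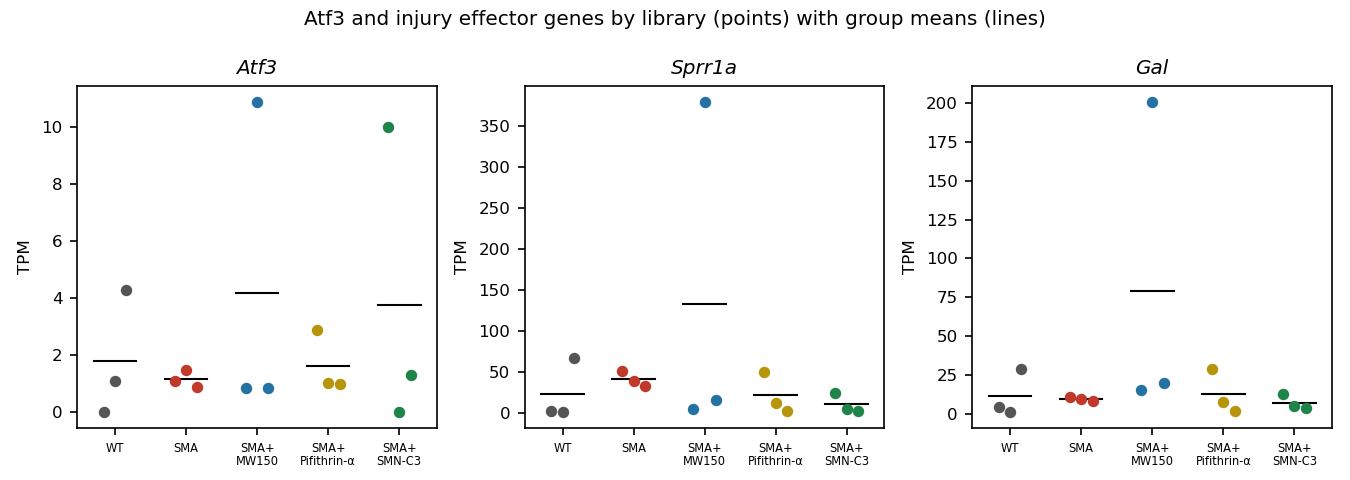
TPM of Atf3, Sprr1a and Gal (y axes) by library, coloured by group, with group means as lines. One SMA+MW150 library is highest in all 3 panels, at 10.9, 380 and 200.8 TPM.

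Sox11 (chr12:27334264-27342574, minus strand) encodes a factor of neuronal growth. Its level was 12.0, 4.71 and 5.14 TPM in WT and 5.21, 6.76 and 3.05 TPM in SMA, and 3.39 to 6.91 TPM in the treated groups. WT 1, the library of highest mitochondrial share, was alone above 7 TPM. The log2 difference between SMA and WT was -0.41 (-1.24 to 0.43, limma adjusted p = 0.611). Over 16 alternatives it was -0.62 to -0.03.

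Klf6 (chr13:5861482-5870394, plus strand) encodes a zinc-finger factor linked to axon growth. Its level was 34.8, 25.0 and 16.5 TPM in WT, 44.6, 23.6 and 27.7 TPM in SMA and 11.7 to 33.3 TPM in the treated groups, with overlap throughout. The log2 difference between SMA and WT was 0.33 (-0.45 to 1.11). The coding transcript gave 44.5% to 81.6% of the gene's TPM, and the rest came from a retained-intron form and a form subject to nonsense-mediated decay. In SMA 1, the library highest in Klf6, it gave 49.9%, or 22.3 TPM, which lies inside the WT range of 13.4 to 26.3 TPM for that form. The coding form averaged 18.4 ± 6.92 TPM in WT and 17.3 ± 4.88 TPM in SMA (SD, n = 3). The retained-intron form averaged 5.65 and 6.46 TPM. The form subject to decay was at 0, 1.05 and 3.03 TPM in WT and 7.81, 5.68 and 11.1 TPM in SMA. No test was run on single forms.

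Fosb, an immediate early Fos protein, was at no more than 0.302 TPM in any library and was listed at 0 in 5 of them. Fosl2, a Fos protein expressed later after a stimulus, was at no more than 0.792 TPM and was listed at 0 in 1. No comparison was made for either.

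In each of 5 wider lists of related genes, 0 genes passed the test in any comparison. Of 22 tested immediate early genes other than the members, 19 were higher in SMA than in WT in mean (median log2 0.53, beside 0.24 over all genes). Without WT 1 and SMA+Pifithrin-α 3, the libraries of highest mitochondrial share, 13 of the 22 were (median 0.26, beside 0.12). Btg2, an antiproliferative immediate early gene, averaged 8.76 ± 2.35 TPM in WT libraries against 24.6 ± 6.03 TPM in SMA libraries (SD, n = 3; limma adjusted p = 0.122) and at 11.0 ± 1.69 TPM in SMA+SMN-C3. Its log2 difference between SMA+SMN-C3 and SMA was -1.07 (SE 0.34, limma adjusted p = 0.367). It passed without WT 1 and SMA+Pifithrin-α 3 (limma adjusted p = 0.0437), an alternative added after the data had been seen. Those libraries belong to neither group, so the difference stayed at -1.07 and only the SE fell, to 0.24. That alternative called 166 genes in this comparison, against 10 in the main fit. Nfil3, a bZIP repressor, averaged 8.20 ± 6.62 TPM in WT libraries against 17.8 ± 2.13 TPM in SMA libraries (adjusted p = 0.287).

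Of 20 other injury transcription factors, 19 were higher in SMA than in WT in mean (median 0.45) and 18 were lower in SMA+SMN-C3 than in SMA (median -0.37, beside -0.23 over all genes). Astrocyte markers had the same median of 0.45 between SMA and WT, and the medians of microglia (1.11) and oligodendrocyte lineage markers (0.94) were higher. Without WT 1 and SMA+Pifithrin-α 3, 16 of the 20 were higher in SMA than in WT (median 0.30, beside 0.12). The marker medians without that pair of libraries were 0.46 for astrocytes, 0.75 for microglia and 0.73 for the oligodendrocyte lineage. Cebpb, a bZIP factor of injury and inflammation that microglia also express, averaged 9.51 ± 4.19 TPM in WT libraries against 18.7 ± 1.76 TPM in SMA libraries (limma adjusted p = 0.302). Arid5a, an RNA-binding regulator of inflammatory transcripts, was at 6.10 ± 4.77 TPM and 11.1 ± 2.73 TPM (adjusted p = 0.426).

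Of 12 tested AP-1 partners, 8 were higher in SMA than in WT in mean (median 0.13, under the 0.24 of all genes), and 6 without that pair of libraries. Maf, a large bZIP factor, averaged 13.0 ± 6.86 TPM in WT libraries against 4.56 ± 1.68 TPM in SMA libraries (adjusted p = 0.204). Jdp2, a repressor that dimerises with Jun, was at 5.59 ± 4.62 TPM and 11.2 ± 2.46 TPM (limma adjusted p = 0.339). In WT 1 Maf was at 20.8 TPM, the highest of the WT libraries, and Jdp2 at 0.539 TPM, the lowest.

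Of 31 tested injury effector genes, 25 were higher in SMA than in WT in mean (median 0.30) and 29 were lower in SMA+Pifithrin-α than in SMA (median -0.52, beside -0.22 over all genes). Without the same pair of libraries, 17 of the 31 were higher in SMA than in WT (median 0.08, beside 0.12) and 22 were lower in SMA+Pifithrin-α than in SMA (median -0.18, beside 0.0046). The glial and red blood cell markers given above were lower in that comparison too. Cd44, a surface receptor found on glia and injured neurons, averaged 3.56 ± 1.81 TPM in WT libraries against 9.34 ± 5.28 TPM in SMA libraries (limma adjusted p = 0.368). Of 27 kinase genes upstream of AP-1, 20 were higher in SMA in mean (median 0.25, near that of all genes), and 16 without that pair of libraries. Map2k3, an activator of p38, averaged 14.1 ± 7.64 TPM in WT libraries against 29.2 ± 15.4 TPM in SMA libraries (adjusted p = 0.370). Mapkapk2, a p38 substrate, was at 10.1 ± 5.81 TPM and 16.8 ± 4.07 TPM (adjusted p = 0.434).

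As a description, the genes whose log2(TPM+1) was most like that of a member over the 15 libraries were sought among 10009 genes with a mean of at least 5 TPM. For Junb the top 3 were Cyb561a3 (Pearson r = 0.96), Rad51d (0.91) and the microglial gene C1qa (0.91). For Atf3 they were Acvr1 (0.77), Sprr1a (0.69) and Btf3l4 (0.68), and for Fos Polk (0.90), Csrp3 (0.89) and L3hypdh (0.89). The single closest gene was Disp2 for Jun (0.96), Igsf8 for Jund (0.98), Cdc23 for Egr1 (0.89), Gtf2a1 for Sox11 (0.91) and Rasgef1b for Klf6 (0.85). The libraries share group, mitochondrial share and glial RNA, so these values are given with no test.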

How the data were processed

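RNA was measured in 15 libraries, 3 in each of 5 groups given by the labels. The authors deposited TPM values per gene and per transcript, each library summing to 1000000. The submitters' processing notes name kallisto 0.44.0, DESeq2 and the builds GRCm38.p6 and mm10, with no role given. The annotation release is not given in the sources used here; 116728 of 118489 transcripts matched GENCODE M21, whose coordinates are used. Tests used genes that reached 1 TPM in 3 or more libraries, on log2(TPM + 1), a pseudocount of 1, in 1 model of all 15 libraries with limma 3.58.1 (R 4.3.3, variance trend, two-sided). Fold changes on this scale understate the change of low genes. Calls were made at a Benjamini-Hochberg adjusted p under 0.05. The procedure was tested on simulated data in which the deviations of each gene were shuffled separately. Shifts shared by all genes of a library were therefore not simulated, and the outcome is not reported here. Figures were drawn with matplotlib 3.10.9. TPM holds no counts, so no count model was run and depth gives no interval.

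The members, lists and tests were chosen with earlier results of these data known. All 10 members are named, with the 2 genes per list of largest SMA difference and a mean of at least 5 TPM where none was called, and the 3 genes most alike to each member were computed. Alternatives were another pseudocount, other filters, scaling, a mitochondrial covariate, library weights, only the compared groups, a replicate block and leaving out each library. Leaving out the 2 libraries of highest mitochondrial share, and a second way to estimate library weights, were added after the data had been seen.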

Additional observations from a re-analysis of the deposited data

How the results depend on the processing

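Of 676 member values under alternatives, 605 kept direction and side of the threshold, 13 passed it, 0 fell below it and 58 changed sign. No member passed in the main fit, so none could fall below the threshold. The values cover all 8 tested members in SMA against WT and in each treated group against SMA. For treated groups against WT they cover Fos, Junb and Egr1, and for the mean of the 4 Smn-/- groups only Fos. Most of the 13 came from library weights that did not converge. All the others came from weights estimated gene by gene or from leaving out the WT library highest in Fos. Those from leaving out that library were all values of Fos. The values that changed sign are listed here, and the cause was not tested. The main counts of called genes were 56 for SMA against WT, 1 for each of MW150 and Pifithrin-α against SMA, and 10 for SMA+SMN-C3 against SMA. TPM without counts limits what can be said of low members such as Atf3.

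The planned library weights of limma (REML) did not converge and gave SMA+Pifithrin-α 2 a weight of 276, so their counts are not a basis for calls. Weights estimated gene by gene were added after those results had been seen, and this choice decides a call: Fos in SMA against WT passed with the first (adjusted p = 0.0255) and not with the second. Under gene-by-gene weights Junb in SMA+Pifithrin-α against SMA (log2 -1.10, adjusted p = 0.0144) and Fos in SMA+SMN-C3 against SMA (log2 -1.15, adjusted p = 0.0416) passed. These weights are no firmer a basis: they put 89.7% of the SMA+Pifithrin-α group on replicate 2 and called 10.2% of all genes in the first comparison and 1.50% in the other.

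With a pseudocount of 0.1, the counts of called genes were 0 for SMA+MW150 against SMA, 0 for SMA+Pifithrin-α against SMA. Without a filter, the counts of called genes were 35 for SMA against WT, 2 for SMA+MW150 against SMA, 3 for SMA+Pifithrin-α against SMA, 13 for SMA+MW150 against WT, 6 for SMA+Pifithrin-α against WT, 15 for the mean of the 4 Smn-/- groups against WT, 17 for any difference among the 5 groups. With a mean of at least 5 TPM, the counts of called genes were 0 for SMA+MW150 against SMA, 0 for SMA+Pifithrin-α against SMA, 4 for SMA+SMN-C3 against SMA, 22 for any difference among the 5 groups. With median-of-ratios scaling, the counts of called genes were 5 for SMA+SMN-C3 against WT. With the mitochondrial share as a covariate, the counts of called genes were 29 for SMA+SMN-C3 against SMA, 40 for SMA+Pifithrin-α against WT, 9 for SMA+SMN-C3 against WT, 67 for any difference among the 5 groups. With only the compared groups in the fit, the counts of called genes were 7 for SMA against WT, 2 for SMA+MW150 against SMA, 0 for SMA+Pifithrin-α against SMA, 0 for SMA+SMN-C3 against SMA, 12 for SMA+MW150 against WT, 0 for SMA+Pifithrin-α against WT. Without WT 1 and SMA+Pifithrin-α 3 (added after seeing the data), the counts of called genes were 88 for SMA against WT, 166 for SMA+SMN-C3 against SMA, 42 for SMA+MW150 against WT, 7 for SMA+SMN-C3 against WT. With the library weights that did not converge, the counts of called genes were 162 for SMA against WT, 3 for SMA+MW150 against SMA, 5155 for SMA+Pifithrin-α against SMA, 331 for SMA+SMN-C3 against SMA, 248 for SMA+MW150 against WT, 3760 for SMA+Pifithrin-α against WT, 59 for SMA+SMN-C3 against WT, 146 for the mean of the 4 Smn-/- groups against WT, 9866 for any difference among the 5 groups. The counts of called members there were 1 for SMA against WT, 4 for SMA+Pifithrin-α against SMA, 1 for SMA+SMN-C3 against SMA, 1 for SMA+MW150 against WT, 1 for SMA+Pifithrin-α against WT, 5 for any difference among the 5 groups. With weights estimated gene by gene, the counts of called genes were 100 for SMA against WT, 3 for SMA+MW150 against SMA, 1574 for SMA+Pifithrin-α against SMA, 231 for SMA+SMN-C3 against SMA, 91 for SMA+MW150 against WT, 609 for SMA+Pifithrin-α against WT, 39 for SMA+SMN-C3 against WT, 65 for the mean of the 4 Smn-/- groups against WT, 3228 for any difference among the 5 groups. The counts of called members there were 1 for SMA+Pifithrin-α against SMA, 1 for SMA+SMN-C3 against SMA, 3 for any difference among the 5 groups. Leaving out 1 library at a time, called genes ranged from 20 to 56 for SMA against WT, from 0 to 1 for SMA+MW150 against SMA, from 0 to 1 for SMA+Pifithrin-α against SMA, from 0 to 11 for SMA+SMN-C3 against SMA, from 9 to 22 for SMA+MW150 against WT, from 5 to 30 for SMA+Pifithrin-α against WT, from 2 to 8 for SMA+SMN-C3 against WT, from 16 to 62 for the mean of the 4 Smn-/- groups against WT. Called members ranged from 0 to 1 for SMA against WT, from 0 to 1 for SMA+MW150 against WT, from 0 to 1 for the mean of the 4 Smn-/- groups against WT; the 1 was Fos without WT 3.

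With the mitochondrial share as a covariate, the log2 difference changed sign for Jund in SMA against WT (-0.13), Jund in SMA+MW150 against SMA (0.012), Jun in SMA+Pifithrin-α against SMA (0.34), Junb in SMA+SMN-C3 against SMA (0.030). With a pseudocount of 0.1, the log2 difference changed sign for Atf3 in SMA against WT (0.61), Atf3 in SMA+SMN-C3 against SMA (-0.13). With the library weights that did not converge, the log2 difference changed sign for Egr1 in SMA+MW150 against SMA (0.019), Sox11 in SMA+MW150 against SMA (0.090), Jun in SMA+Pifithrin-α against SMA (0.040), Atf3 in SMA+Pifithrin-α against SMA (-0.024), Sox11 in SMA+Pifithrin-α against SMA (0.57), Junb in SMA+Pifithrin-α against WT (-0.25). With weights estimated gene by gene, the log2 difference changed sign for Egr1 in SMA+MW150 against SMA (0.013), Sox11 in SMA+MW150 against SMA (0.053), Jun in SMA+Pifithrin-α against SMA (0.053), Sox11 in SMA+Pifithrin-α against SMA (0.47), Junb in SMA+Pifithrin-α against WT (-0.16). With median-of-ratios scaling, the log2 difference changed sign for Jun in SMA+Pifithrin-α against SMA (0.088), Sox11 in SMA+Pifithrin-α against SMA (0.21), Junb in SMA+SMN-C3 against SMA (0.14), Sox11 in SMA+SMN-C3 against SMA (0.14), Klf6 in SMA+SMN-C3 against SMA (0.060). Without WT 1 and SMA+Pifithrin-α 3, the log2 difference changed sign for Jun in SMA+Pifithrin-α against SMA (0.33), Sox11 in SMA+Pifithrin-α against SMA (0.20), Fos in SMA+SMN-C3 against WT (-0.017). Leaving out 1 library at a time, the log2 difference ranged from -0.17 to 0.19 for Jun in SMA against WT, from -0.64 to 0.57 for Atf3 in SMA against WT, from -0.22 to 0.17 for Junb in SMA+MW150 against SMA, from -0.17 to 0.042 for Fos in SMA+MW150 against SMA, from -0.21 to 1.14 for Atf3 in SMA+MW150 against SMA, from -0.18 to 0.084 for Egr1 in SMA+MW150 against SMA, from -0.27 to 0.20 for Sox11 in SMA+MW150 against SMA, from -0.38 to 0.069 for Klf6 in SMA+MW150 against SMA, from -0.55 to 0.33 for Jun in SMA+Pifithrin-α against SMA, from -0.086 to 0.40 for Atf3 in SMA+Pifithrin-α against SMA, from -0.26 to 0.21 for Sox11 in SMA+Pifithrin-α against SMA, from -0.25 to 0.14 for Junb in SMA+SMN-C3 against SMA, from -0.49 to 1.24 for Atf3 in SMA+SMN-C3 against SMA, from -0.34 to 0.13 for Sox11 in SMA+SMN-C3 against SMA, from -0.38 to 0.063 for Klf6 in SMA+SMN-C3 against SMA, from -0.30 to 0.48 for Junb in SMA+Pifithrin-α against WT, from -0.30 to 0.30 for Egr1 in SMA+Pifithrin-α against WT, from -0.017 to 0.81 for Fos in SMA+SMN-C3 against WT, from -0.59 to 0.0084 for Egr1 in SMA+SMN-C3 against WT.

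With the replicate number as a block, called genes numbered 48 for SMA against WT and 11 for SMA+SMN-C3 against SMA. The block called 0 members. The deviations of same-numbered libraries had a median correlation of 0.0079 (-0.34 to 0.29 over 30 pairs), with 4 pairs over 0.1. For the 60 other pairs the median was 0.0078, with 16 over 0.1. No pairing by number was seen, but 3 libraries a group are too few to exclude it.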
